A study of Mus musculus with 16 samples.

Results

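The major histocompatibility complex (MHC) class II presentation genes comprised Cd74, H2-Aa, H2-Ab1, H2-Eb1, H2-DMa, H2-DMb1 and Ciita, and were followed through demyelination and remyelination of the mouse corpus callosum. They were chosen as a list of 7 names, and all probes that matched a listed name through the accession in the array files were taken. Of the 7 genes, 6 had a probe, with 10 probes in all, of 18749 named genes and 41174 probes on the array. H2-Eb1, the beta chain of the E molecule, was not analysed here because no probe carried its name in the table used.

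Single-colour Agilent arrays, 16 in number, were read from bulk RNA of the dissected corpus callosum. All groups consisted of male C57BL/6 mice. The untreated group held 3 arrays, and cuprizone (CPZ), a copper chelator given in the chow that leads to loss of oligodendrocytes, was represented by 3 arrays after 2 weeks and 4 arrays after 4 weeks. Another 6 arrays came from mice returned to regular diet after CPZ. The study describes 2 days and 2 weeks of regular diet, but the labels do not separate them, so these 6 arrays form a mixed group in time. The labels give 0.2 to 0.4% CPZ and the methods 0.2%, with mice of 7 to 8 weeks and controls matched in age to the mice with 4 weeks of CPZ. The labels number the arrays but do not state that each is a different mouse, so the tests measure the spread between arrays.

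MHC class II molecules are pairs of an alpha and a beta chain that display peptides from the endosomal pathway to CD4+ T cells. CD74, the invariant chain, is bound in the groove during transport, cathepsins cut it down, and the H2-DM pair releases the remaining fragment and loads peptide. CIITA is the transactivator that switches most of these genes on together, and it docks on a complex of RFX, CREB and NF-Y proteins at the X, X2 and Y boxes upstream of each gene. In the healthy brain class II is scarce in parenchymal microglia and is more common in macrophages of the borders and in the choroid plexus. C57BL/6 mice make no E alpha chain, so A is their surface class II molecule.

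The stretches upstream of 3 members are shown because their levels differed in pattern and their upstream bases can be read for these boxes. They are the 150 bases before the gene start, 5′ to 3′ on the strand of the gene, from RefSeq on build GRCm38.p6. Capitals mark matches, on either strand, to TGATTGG (Y box core), ACTGATG (X box core) or TGACGTC (X2 box core). The stretch of H2-Aa lies at chr17:34287824-34287973 on the minus strand, that of H2-DMb1 at chr17:34153041-34153190 on the plus strand, and that of H2-DMa at chr17:34122682-34122831 on the plus strand.
H2-Aa: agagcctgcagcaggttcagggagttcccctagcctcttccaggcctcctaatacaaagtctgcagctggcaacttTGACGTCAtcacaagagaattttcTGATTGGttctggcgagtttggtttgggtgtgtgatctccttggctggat
H2-DMb1: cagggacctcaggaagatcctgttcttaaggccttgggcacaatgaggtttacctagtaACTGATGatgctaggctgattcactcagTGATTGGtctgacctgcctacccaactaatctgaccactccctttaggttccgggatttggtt
H2-DMa: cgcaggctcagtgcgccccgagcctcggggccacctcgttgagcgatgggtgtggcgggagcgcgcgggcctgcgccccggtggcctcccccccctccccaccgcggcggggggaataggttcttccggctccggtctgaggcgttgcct

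The Y box core started 50 bases before the start of H2-Aa and 63 bases before that of H2-DMb1. The X2 core of H2-Aa matched on both strands, so its capitals hold a pair of overlapping matches, while H2-DMb1 held the X box core, 91 bases before its start. The start of H2-DMa shown held none of the 3 cores, which says only that these letters are not in the window. The table gives a second start for H2-DMa, where none was found either. Among 32851 promoters of the mouse table, searched over 250 bases each, 7.23% held the Y box core, 2.71% the X box core and 2.78% the X2 core. The table held H2-Eb1 too, with the X and Y box cores at similar places.

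All levels below are log2 signals of 1 probe relative to the 75th percentile of its array, so that 0 is a bright probe and a difference of 1 is a 2-fold difference; levels of different probes are not compared. Cd74, H2-Ab1, H2-DMa and H2-DMb1 were tested, each by its brightest probe, and these 4 probes were well above background on all 16 arrays by the scanner's own call. The dimmer probes of H2-Ab1 and H2-DMb1 missed this on 1 or 2 untreated arrays, and that of H2-DMb1 also on 1 4-week array. H2-Aa and Ciita did not pass the filter on dim probes, which kept a probe only where some group had it well above background without exception. Arrays 1 and 2 of the regular diet stood apart. The summed linear level of 10 microglial genes was 323 and 384 times the 75th percentile on these arrays, against 19.9 to 80.1 on the other 14. The sum of 6 oligodendrocyte genes was 85.7 and 90.7 there. It was 557 to 1200 on the untreated arrays, 28.1 to 238 after 2 weeks and 38.3 to 347 after 4 weeks of CPZ, and 147, 774, 814 and 1110 on regular diet arrays 3 to 6. In bulk tissue, more cells of a type and more RNA per cell cannot be told apart. The main differences of the regular diet from untreated are therefore also given without these arrays, a choice made after seeing the data.

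**Figure D1:**
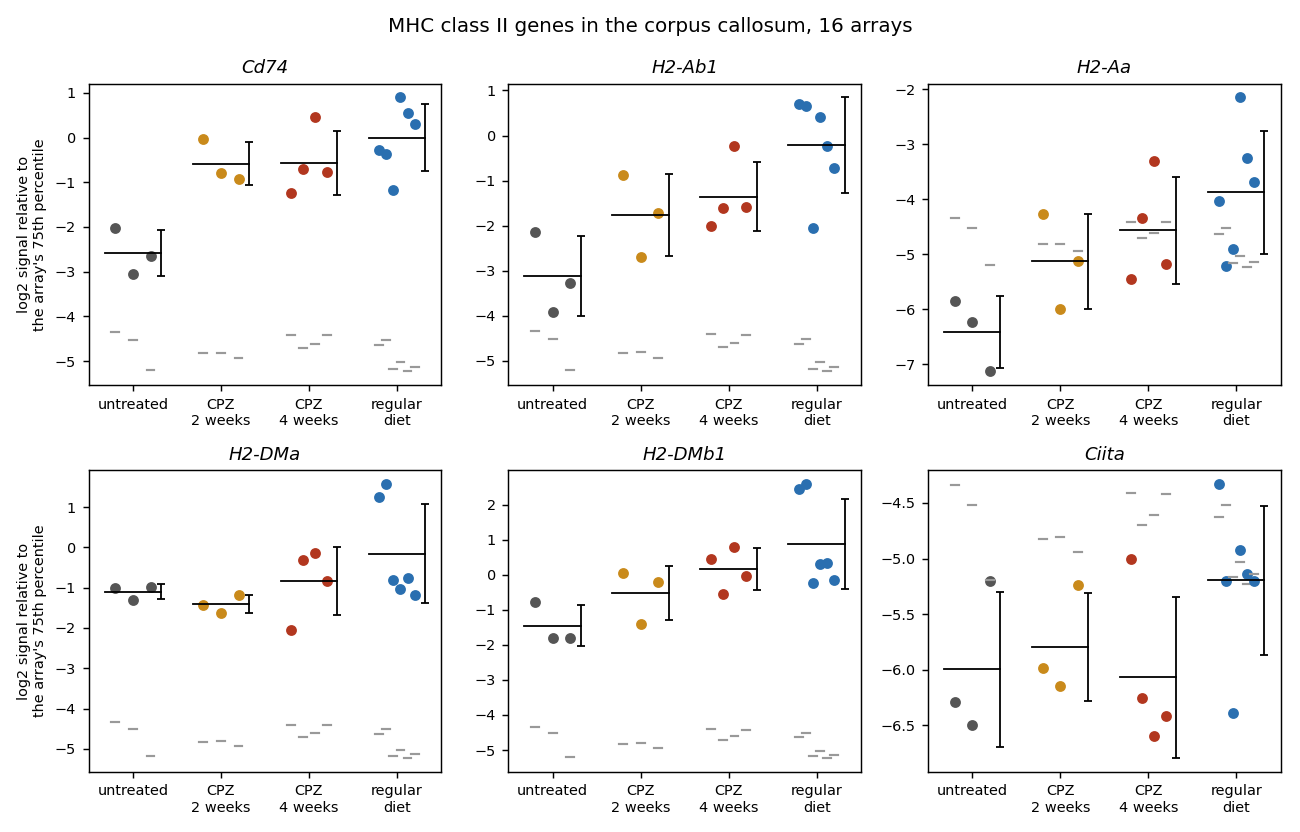
Level of the 6 class II genes with a probe, as log2 signal relative to the 75th percentile of the array (y axis), by group (x axis). Each point is 1 array, black lines are group means with their SD (n = 3, 3, 4 and 6), and grey ticks mark, array by array, the lowest signal of any probe well above background. All 13 Cd74 points of the CPZ and regular diet groups lie above the 3 untreated points, while H2-Aa and Ciita lie near or under the ticks on many arrays.

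Cd74, the invariant chain, was low in the untreated corpus callosum and higher on every other array. Its levels were -2.03, -3.06 and -2.64 on the untreated arrays. They were -0.03, -0.80 and -0.92 after 2 weeks of CPZ, and -1.24, -0.70, 0.45 and -0.77 after 4 weeks. The highest untreated array lay below the lowest array of both CPZ groups. On regular diet the levels were -0.28, -0.36, -1.18, 0.90, 0.56 and 0.31, again all above the untreated arrays. The group means were -2.57 ± 0.52 (SD, n = 3) untreated, -0.58 ± 0.48 (SD, n = 3) at 2 weeks, -0.57 ± 0.71 (SD, n = 4) at 4 weeks and -0.01 ± 0.75 (SD, n = 6) on regular diet. The 2-week, 4-week and regular diet groups overlapped.

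H2-Ab1, the beta chain of the A molecule, was ordered in the same way with more spread. Its levels were -2.15, -3.92 and -3.28 untreated, and -0.88, -2.69 and -1.71 after 2 weeks of CPZ, where array 2 lay within the untreated range. After 4 weeks they were -2.00, -1.60, -0.24 and -1.59, all above the untreated arrays, the lowest by a small margin. On regular diet they were 0.69, 0.65, -2.05, 0.41, -0.23 and -0.72. Array 3 of the regular diet was far below the other 5 and just above the highest untreated array.

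The H2-DM pair, which edits the peptide in the groove, did not follow 1 pattern. H2-DMb1, its beta chain, had levels of -0.77, -1.80 and -1.79 untreated, 0.06, -1.39 and -0.21 after 2 weeks of CPZ, and 0.45, -0.56, 0.80 and -0.02 after 4 weeks. On regular diet it stood at 2.44 and 2.59 on arrays 1 and 2, and at -0.22, 0.30, 0.35 and -0.14 on the other 4. The untreated arrays lay below all arrays of the 4-week and regular diet groups, and overlapped the 2-week group. H2-DMb1 has a near-identical neighbour, H2-DMb2, whose own probe was well above background on 0 of the 16 arrays; whether its RNA binds the H2-DMb1 probes was not tested. H2-DMa, the alpha chain, had levels of -1.01, -1.31 and -0.98 untreated, -1.42, -1.63 and -1.18 after 2 weeks, and -2.04, -0.32, -0.15 and -0.84 after 4 weeks. On regular diet it was at 1.26 and 1.57 on arrays 1 and 2 and at -0.81, -1.04, -0.76 and -1.18 on the other 4. Apart from those 2 arrays, each group overlapped the untreated arrays.

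H2-Aa, the alpha chain of the A molecule, was not well above background on any untreated array. On its probe with the most detected arrays it was well above background on 1 of 3 arrays after 2 weeks of CPZ, 2 of 4 after 4 weeks and 4 of 6 on regular diet. Its measured levels there were -5.86, -6.24 and -7.13 untreated, -4.27, -6.00 and -5.12 at 2 weeks, -5.45, -4.34, -3.30 and -5.18 at 4 weeks, and -4.04, -5.21, -4.91, -2.15, -3.26 and -3.68 on regular diet. Since the untreated level is only an upper limit, only a lower estimate can be given for the ratio. For this, each untreated array took the probe's own signal or its dimmest signal well above background, whichever was higher, and the mean of these was set against the mean of the brighter group. With the signals of the brighter group taken as they are, H2-Aa was at least 1.08-fold higher after 4 weeks of CPZ, with 2 of 4 arrays measured. On regular diet it was at least 1.75-fold higher, with 4 of 6 arrays measured. Its second probe gave at least 1.46-fold on regular diet, with 3 of 6 arrays measured, and no bound above 1 for CPZ. Without regular diet arrays 1 and 2 the probes gave at least 2.27-fold and 2.01-fold, each with 3 of 4 arrays measured. Neither probe gave a bound above 1 at 2 weeks. In each of these H2-Aa bounds the brighter mean holds arrays not well above background. Their true level may be lower, so the bounds are not strict minima. They refer to the scanner's processed signal only. Ciita was well above background on 1 of the 16 arrays, regular diet 1, at -4.33, and its levels of -6.60 to -4.92 on the other 15 are limits without an order.

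The first question was whether class II transcripts differed from the untreated state during demyelination. After 2 weeks of CPZ, none of the 4 tested members was called, where a call needed an adjusted p under 0.05 by limma and at least a 2-fold difference. Of all 20404 genes tested, 0.211% were called, 0.0784% in the higher direction. Here and below, all genes are 13883 named genes and 6521 accessions without a name in the table used, each counted as 1 gene, and 13987 and 6621 in the regular diet comparisons. Of named genes alone, 0.238% were called at 2 weeks, 0.202% at 4 weeks and 1.07% on regular diet against untreated. Cd74 was 1.99 higher on the log2 scale (SE 0.45, 95% interval 0.97 to 3.01), with a limma adjusted p of 0.12. H2-Ab1 differed by 1.36 (SE 0.62, adjusted p 0.56), H2-DMb1 by 0.94 (SE 0.48, adjusted p 0.66) and H2-DMa by -0.31 (SE 0.44, adjusted p 0.90). Cd74 alone of the 4 had all 3 CPZ arrays above all untreated arrays, which held for 8.16% of all genes. At an unadjusted p under 0.05, 1 of the 4 passed, beside 9.53% of all genes.

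After 4 weeks of CPZ, again none of the 4 members was called, beside 0.167% of all genes (0.098% higher). Cd74 was 2.01 higher (SE 0.42, interval 1.05 to 2.96, limma adjusted p 0.099), close to its difference at 2 weeks. H2-Ab1 was 1.76 higher (SE 0.58, adjusted p 0.29) and H2-DMb1 1.62 higher (SE 0.45, adjusted p 0.20), while H2-DMa differed by 0.26 (SE 0.41, interval -0.66 to 1.18, adjusted p 0.90). All 4 CPZ arrays lay above all untreated arrays for Cd74, H2-Ab1 and H2-DMb1, 3 of the 4 members, beside 5.31% of all genes. At an unadjusted p under 0.05 these 3 passed, beside 2044 of all 20404 genes. The median difference of the 4 members was 1.69, against -0.04 over all genes tested. With normexp background correction it was 0.76 at 4 weeks and 0.45 at 2 weeks, with Cd74 at 0.98 and 1.00 (limma adjusted p 0.17 and 0.20). With scanner files assigned as recorded, the 4-week direction of Cd74 (-0.38, adjusted p 0.98) and of H2-Ab1 (-0.11) turned. The second probe of H2-DMb1 gave 0.77 (SE 0.48, adjusted p 0.71), under the 1.62 of the first, and the other probes of H2-Ab1 gave 1.38 and 1.63 (adjusted p 0.32 and 0.35). The call depended on how the slide was treated. With the 4 slides as a fixed block H2-DMb1 was called (2.26, limma adjusted p 0.019), and with the slide as a random block Cd74 was called (2.10, adjusted p 0.046). These fits called 393 and 327 of all genes, against 34 without the slide. Within a slide, Cd74 was 3.50 and 1.40 higher on the 2 slides that held both groups, and H2-DMb1 was 2.60 and 2.23 higher. H2-DMa differed by 1.16 on the first and by -1.06 on the other.

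Between 4 and 2 weeks of CPZ no member was called, beside 0.0147% of all genes, and none of the 4 passed at an unadjusted p under 0.05, which 11.3% of all genes did. Cd74 differed by 0.02, with an interval of -0.93 to 0.97, H2-Ab1 by 0.40 (-0.91 to 1.71), H2-DMb1 by 0.68 (-0.34 to 1.70) and H2-DMa by 0.57 (-0.35 to 1.50). No member had all 4-week arrays above all 2-week arrays, beside 5.82% of all genes. The intervals leave room for a 2-fold difference in at least 1 direction for 3 of the genes, and for Cd74 they end just short of it. The 2-week and 4-week comparisons share their 3 untreated arrays.

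**Figure D2:**
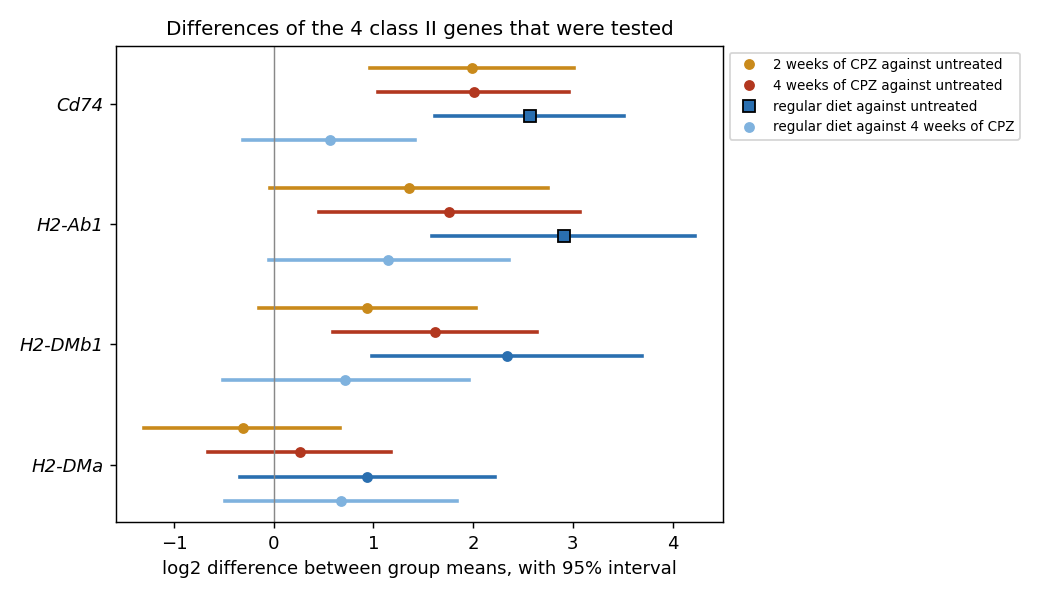
Log2 difference between group means (x axis) for the 4 class II genes tested (y axis), with 95% intervals from the limma fit, by comparison (colour). Squares with a black edge mark calls; Cd74 (2.57) and H2-Ab1 (2.91) on regular diet against untreated are the calls, and the intervals of H2-DMa cross 0 in every comparison shown.

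The next question was where class II transcripts stood once CPZ had been withdrawn. Cd74 and H2-Ab1 were called higher on regular diet than in untreated mice, 2 of the 4 members, and no member was called lower. In this comparison 0.854% of 20608 genes were called, all of them higher. Cd74 rose by 2.57 on the log2 scale, 5.92-fold (SE 0.44, interval 1.62 to 3.51, limma adjusted p 0.015). H2-Ab1 rose by 2.91, 7.51-fold (SE 0.62, interval 1.59 to 4.23, adjusted p 0.044). H2-DMb1 was 2.34 higher (SE 0.63, adjusted p 0.13) and H2-DMa differed by 0.94 (SE 0.60, adjusted p 0.56). All 6 regular diet arrays lay above all untreated arrays for Cd74, H2-Ab1 and H2-DMb1, beside 5.06% of all genes. The median of the 4 members was 2.45 and that of all genes -0.01.

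The calls depended on single arrays. Cd74 was no longer called without untreated array 2 (2.32, limma adjusted p 0.11) or array 3 (2.53, adjusted p 0.10), and it stayed called without any other single array. H2-Ab1 lost its call without any 1 of 12 of the 16 arrays, with differences of 2.51 to 3.39 and adjusted p from 0.054 to 0.25. Those 12 were all 3 untreated arrays, array 3 of the 2-week group, arrays 1, 2 and 4 of the 4-week group and arrays 1, 2, 4, 5 and 6 of the regular diet. With normexp background correction the difference was 1.36 for Cd74 (adjusted p 0.10) and 1.31 for H2-Ab1 (adjusted p 0.12). With scanner files assigned to samples as recorded, it was 0.16 (adjusted p 0.96) and 0.04 (adjusted p 0.99), while the deposited log2 table, read by its own sample columns, gave 2.57 and 2.91 (adjusted p 0.015 and 0.044). The other 2 probes of H2-Ab1 gave 2.38 each, one called (adjusted p 0.045) and one not (adjusted p 0.076). Within the 3 slides that held both groups, Cd74 was 2.93, 3.03 and 2.78 higher and H2-Ab1 2.56, 3.89 and 3.51 higher. H2-DMb1 was 1.07, 3.02 and 3.18 higher on the same slides, and H2-DMa differed by -0.02, 1.50 and 1.23. Arrays 1 and 2 of the regular diet lie on the latter 2 slides.

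Without those 2 arrays, Cd74 kept its call at 2.72 (SE 0.50, limma adjusted p 0.036). H2-Ab1 was 2.47 higher (SE 0.64) and no longer called, at an adjusted p of 0.15. H2-DMb1 then stood 1.52 higher (adjusted p 0.17), and H2-DMa differed by 0.15 (adjusted p 0.93). The difference of Cd74 was as large without the arrays with the highest microglial signal as with them, while that of H2-DMa was 0.94 with them.

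Against 4 weeks of CPZ, no member was called on regular diet, beside 0.00485% of all genes, and none passed at an unadjusted p under 0.05, which 26.6% of all genes did. Cd74 differed by 0.56 (interval -0.31 to 1.42, adjusted p 0.39), H2-Ab1 by 1.15 (-0.05 to 2.36, adjusted p 0.22), H2-DMb1 by 0.72 (-0.51 to 1.96, adjusted p 0.44) and H2-DMa by 0.68 (-0.49 to 1.84, adjusted p 0.44). Without arrays 1 and 2 of the regular diet, H2-DMa and H2-DMb1 differed by -0.11 and -0.09, so that the sign of both turned. The second probe of H2-DMb1 did not turn, with 1.33 (interval 0.07 to 2.58, limma adjusted p 0.18) and 0.51 without these arrays. The other probes of H2-Ab1 gave 1.00 (0.01 to 2.00, adjusted p 0.20) and 0.75 (-0.37 to 1.87, adjusted p 0.38). None of the intervals of the 4 brightest probes excluded 0, and no member had all regular diet arrays above all 4-week arrays, beside 4.97% of all genes.

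**Figure D3:**
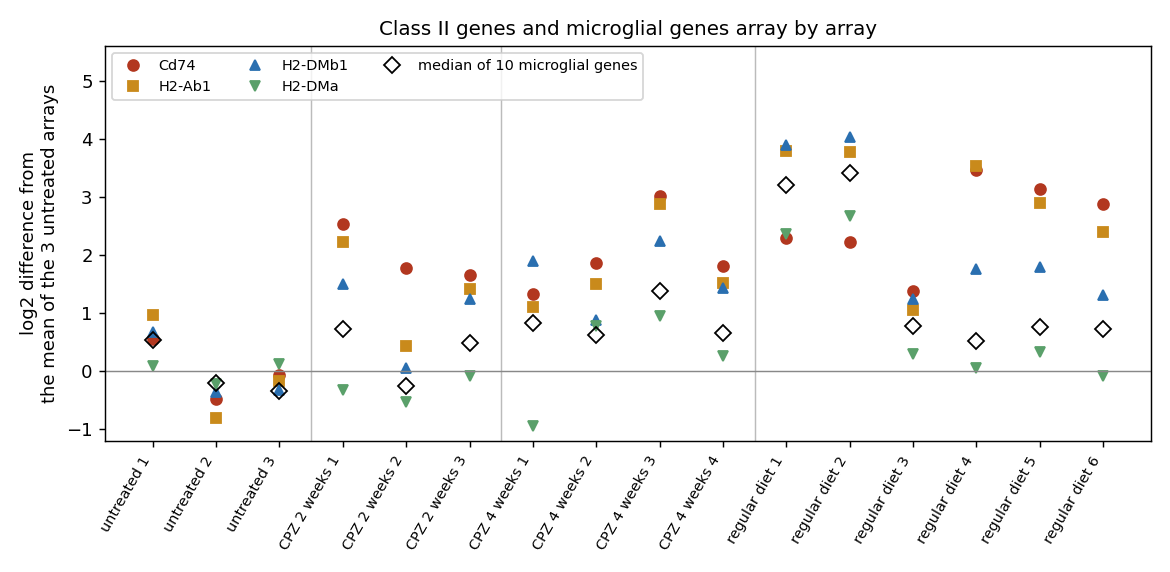
Log2 difference of each array from the mean of the 3 untreated arrays (y axis) for 4 class II genes and for the median of 10 microglial genes (open diamonds), array by array (x axis). On regular diet arrays 1 and 2 the microglial median is 3.20 and 3.42 and H2-DMb1 is above Cd74; on arrays 3 to 6 the microglial median is between 0.52 and 0.78, with Cd74 at 1.39 on array 3 and between 2.88 and 3.47 on the others.

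The members differed in how they stood to the microglial genes on the same array. As a measure, each gene and each of 10 microglial genes was set against its untreated mean. On regular diet arrays 1 and 2 the microglial median was 3.20 and 3.42 above its untreated mean. There H2-DMb1 was 3.90 and 4.04 higher, H2-DMa 2.36 and 2.67 higher, and Cd74 2.29 and 2.22 higher. On regular diet arrays 3, 4, 5 and 6 the microglial median was 0.78, 0.52, 0.76 and 0.72, while Cd74 was 1.39, 3.47, 3.13 and 2.88 higher and H2-DMa differed by 0.29, 0.06, 0.34 and -0.08. Cd74 exceeded the microglial median on 11 of the 13 CPZ and regular diet arrays, H2-Ab1 and H2-DMb1 on 13 of 13, and H2-DMa on 1 of 13. This describes unequal differences within arrays and was not tested.

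Across the 16 arrays, the level of Cd74 had a Pearson correlation of 0.90 with H2-Aa, 0.86 with H2-Ab1, 0.59 with H2-DMb1 and 0.25 with H2-DMa. H2-DMb1 correlated 0.88 with H2-Ab1 and 0.75 with H2-DMa. Over the 10 untreated and CPZ arrays the last of these was 0.17, and that of H2-Ab1 with H2-DMb1 was 0.90. The H2-Aa probe was well above background on 7 of the 16 arrays, so its correlations rest in part on unmeasured levels. The arrays share their groups and scaling, and these values are a description.

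Markers of other cells that could carry class II transcripts were read on the same arrays. The summed level of 7 border macrophage genes was 0.45 to 0.965 on untreated arrays, 0.685 to 3.85 after 2 weeks and 0.877 to 1.13 after 4 weeks of CPZ, and 1.22 to 4.30 on regular diet. Of these genes 1 was called, Ms4a7 on regular diet against untreated (3.75, limma adjusted p 0.0050, and 3.34 with adjusted p 0.0097 without arrays 1 and 2), where the median of the list was 0.19 (0.60 without them). On regular diet arrays 1 and 2, with sums of 2.67 and 4.30, that median stood at -0.38 and -0.52 relative to the untreated mean, and 3 of the 7 genes were well above background. Of the 10 microglial genes 1 was called, Fcrls, at 4 weeks of CPZ (2.24, limma adjusted p 0.047). On regular diet it was 3.04 higher (adjusted p 0.19), and 1.72 higher and called without arrays 1 and 2 (adjusted p 0.039). The median of the microglial list on regular diet was 1.59, and 0.72 without these arrays. The choroid plexus sum of 5 genes was 2.21 to 11.8 untreated, 2.12 to 12.6 at 2 weeks, 0.965 to 47.2 at 4 weeks and 1.03 to 34.8 on regular diet. The median difference of these genes from untreated was 0.11 at 2 weeks, 1.08 at 4 weeks and -0.01 on regular diet. Without regular diet arrays 1 and 2 it was 0.97, with single genes between 0.61 and 1.51. None of these genes was called in these comparisons. In each of the 4 groups the array with the highest choroid plexus sum, untreated 1, 2-week 1, 4-week 3 and regular diet 4, was also the one with the highest Cd74 level. The whole order of arrays was the same by both measures in the untreated and 4-week groups, but not in the 2-week and regular diet groups. Regular diet array 3 had a sum of 11.7 with the lowest Cd74 level of its group (-1.18). Array 5 had a sum of 2.79 with a Cd74 level of 0.56. Of 5 markers each, those of B cells summed to 0.192 to 0.256 untreated and 0.257 to 1.00 on regular diet. After 2 and 4 weeks of CPZ they summed to 0.258 to 0.312 and 0.281 to 0.434. On regular diet arrays 1 and 2 the sums were 0.88 and 1.00, with Cd79b at -0.55 and -0.22. On arrays 3 to 6 they were 0.359, 0.26, 0.257 and 0.326. Those of dendritic cells summed to 0.389 to 0.469 untreated, 0.35 to 0.42 and 0.374 to 0.426 after 2 and 4 weeks of CPZ, and 0.303 to 0.431 on regular diet. Among the B cell markers 2 or 3 were well above background on each array, and among those of dendritic cells 3 on each array. Markers of T cells summed to 0.253 to 0.284 untreated, 0.317 to 0.36 after 2 weeks and 0.325 to 0.402 after 4 weeks of CPZ, and 0.303 to 0.555 on regular diet, but only 1 or 2 of the 5 were well above background on untreated arrays, so these sums hold signals under background. The 2 that were tested, Cd3e and Cd4, had differences from untreated of -0.28 to 0.34, and neither was called. Of those not tested, Cd3d was well above background on 0 of 3 untreated arrays. It was so on 2 of 3 arrays after 2 weeks, 3 of 4 after 4 weeks and 4 of 6 on regular diet. For the Cd8a probe with the most detected arrays these counts were 0, 1, 0 and 3, and for Cd3g 0, 0, 0 and 1. Markers of monocytes summed to 7.95 to 13.6 untreated, to 15 to 16.6 after 2 weeks, above all untreated arrays, and to 8.86 to 14.3 after 4 weeks. On regular diet the lowest monocyte sum was 6.26 and none exceeded the untreated range. Of the 5 monocyte markers 1 to 3 were well above background on each array. The part of these cells in the class II values was not tested.

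The remaining genes of the class II pathway were taken from 6 lists with 36 genes, of which 35 had a probe and 29 were tested. At 2 weeks of CPZ none of the 29 was called, at 4 weeks 1 was called (0.167% of all genes) and on regular diet against untreated 1 was called (0.854% of all genes), both higher. At an unadjusted p under 0.05, 13, 14 and 15 of the 29 passed in these comparisons, beside 1945 and 2044 of 20404 and 2180 of 20608 genes in all. Their medians were 0.34 at 2 weeks, 0.54 at 4 weeks and 0.70 on regular diet, against 0.05, -0.04 and -0.01 over all genes. Without regular diet arrays 1 and 2, the median on regular diet was 0.52, against 0.00 over all genes, and 3 of the 29 were called, Cd83, Cd86 and Irf8, beside 0.776% of all genes. Cd86 was well above background on 0 of 3 untreated arrays, so its call rests on untreated signals that were not measured. No gene of the 29 was called between 4 and 2 weeks or between regular diet and 4 weeks of CPZ, where 3 and 4 of them passed at an unadjusted p under 0.05, beside 11.3% and 26.6% of all genes.

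**Figure D4:**
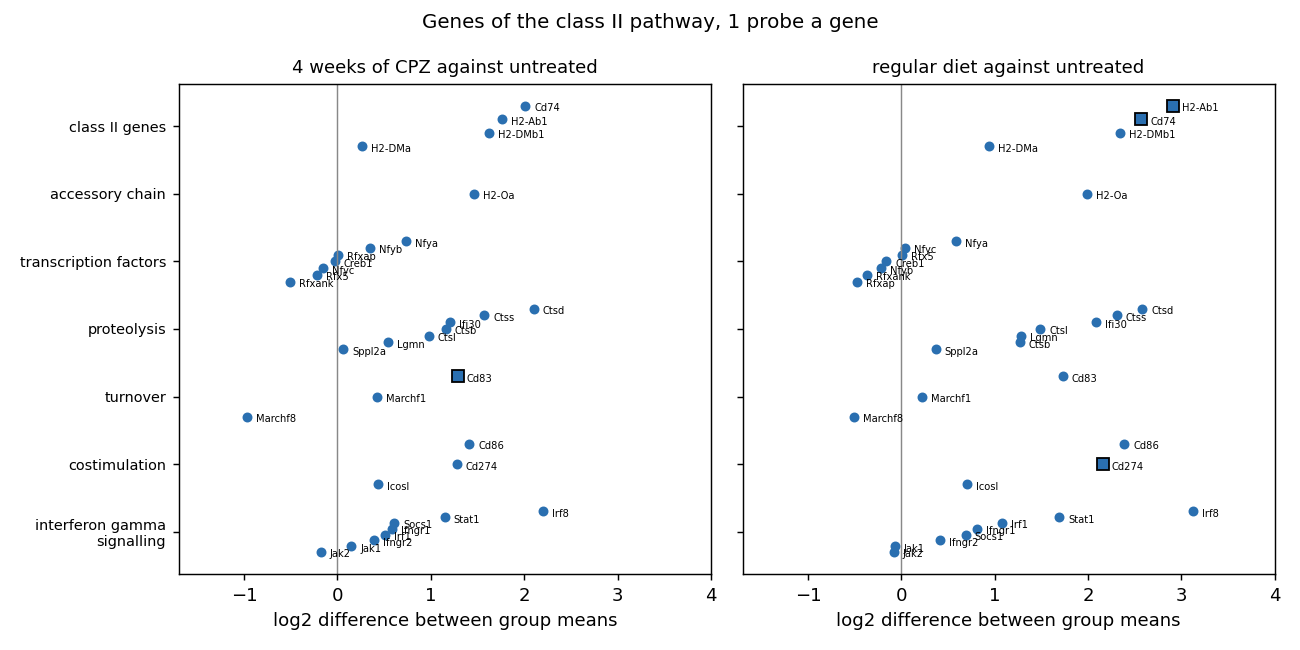
Log2 difference between group means (x axis) for each tested gene of the class II pathway, grouped by role (y axis), after 4 weeks of CPZ (left) and on regular diet (right), each against untreated. Squares with a black edge mark calls, Cd83 on the left and Cd274 with Cd74 and H2-Ab1 on the right; the transcription factors lie on both sides of 0.

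Upstream of transcription, the 7 genes of the RFX, NF-Y and CREB proteins that occupy class II promoters had medians near 0, and none was called. The median was -0.12 at 2 weeks, -0.03 at 4 weeks and -0.16 on regular diet, with single genes between -1.02 (Rfxank at 2 weeks, limma adjusted p 0.43) and 0.73 (Nfya at 4 weeks, adjusted p 0.74). Of 8 tested genes of interferon gamma signalling, which induces CIITA, none was called. Irf8, a transcription factor of macrophages and microglia, was 1.65, 2.20 and 3.12 higher at 2 weeks, 4 weeks and on regular diet, with limma adjusted p of 0.16, 0.079 and 0.060. Without regular diet arrays 1 and 2 the last of these was 2.12, no higher than at 4 weeks, and was called (adjusted p 0.025). At 4 weeks Irf8 was called under 4 of 22 alternatives of the processing. Ifng itself was not tested, since its probe did not pass the filter on dim probes.

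Along the loading route, H2-Oa, a chain of the inhibitor of H2-DM, was 0.97, 1.46 and 1.99 higher in the same comparisons, and was not called (limma adjusted p 0.64, 0.26 and 0.16). At 4 weeks it was called under 1 of 22 alternatives of the processing. Without regular diet arrays 1 and 2 H2-Oa was 1.33 higher (limma adjusted p 0.36). The 7 genes of antigen proteolysis were all above 0 in each of these comparisons, with medians of 1.00, 1.16 and 1.49, and none was called. Ctss, the cathepsin that trims the invariant chain, differed by 1.13, 1.57 and 2.31 (adjusted p 0.50, 0.21 and 0.12). Ctsd, an aspartic protease of the lysosome, differed by 1.19, 2.10 and 2.58 (adjusted p 0.50, 0.11 and 0.23). At 4 weeks Ctss was called under 1 and Ctsd under 3 of 22 alternatives. Without regular diet arrays 1 and 2, Ctss differed by 1.54 (limma adjusted p 0.15) and Ctsd by 1.44 (adjusted p 0.27), and the median of the list was 0.73. Set directly against 4 weeks of CPZ without these arrays, Ctss differed by -0.03 (SE 0.37, limma adjusted p 0.97). Ctsd differed by -0.65 (SE 0.40, adjusted p 0.35), and by 0.09 (SE 0.37) on its other probe. The summed level of this list was 1530 and 1740 on regular diet arrays 1 and 2, against 91.8 to 442 on the other 14.

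At the cell surface, Cd83, which keeps class II molecules from ubiquitin-driven turnover, was called at 4 weeks of CPZ. Its levels were 0.61, 0.50 and 0.65 untreated, 1.37, 1.18 and 1.51 at 2 weeks, and 1.93, 1.63, 2.24 and 1.71 at 4 weeks, with no overlap between untreated and CPZ arrays. The 4-week difference was 1.29 (SE 0.19, limma adjusted p 0.047), and the 2-week difference 0.77 (SE 0.20, adjusted p 0.17). The call was lost without any 1 of 8 of the 10 arrays, with adjusted p of 0.066 to 0.25 and differences of 1.17 to 1.35. The exceptions were array 2 of each CPZ group. It was also lost with quantile normalization (adjusted p 0.067), median scaling (0.12), no filter on dim probes (0.067), the replicate block (0.20), the methods' test (0.12), the fit to all 16 arrays (0.34) and the recorded assignment (0.95). On regular diet Cd83 ranged from 1.27 to 3.70, and its difference of 1.73 had an adjusted p of 0.083. Without arrays 1 and 2 it was 1.14 and called, with an adjusted p of 0.034.

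Cd274, the ligand PD-L1 that restrains T cells, was called on regular diet. It stood at -3.31, -3.33 and -3.55 untreated and at -0.80, -0.44, -2.05, -1.24, -1.55 and -1.30 on regular diet, and the groups did not overlap. The difference was 2.16 (SE 0.42, limma adjusted p 0.024). It was lost without any of untreated arrays 1 to 3 (adjusted p 0.091, 0.12 and 0.16) or without regular diet array 1 (0.060), and without regular diet arrays 1 and 2 together (1.86, adjusted p 0.083). Quantile normalization (adjusted p 0.056), median scaling (0.080), the replicate block (0.10) and the methods' test (0.12) ended the call too, and normexp lowered the difference to 0.51 (adjusted p 0.20). With the recorded assignment of scanner files the difference was -0.24 (adjusted p 0.93). Cd86, a costimulatory ligand of CD28, was not well above background on any untreated array, so only minimum folds can be given, as for H2-Aa. Its brightest probe was at least 2.16-fold higher at 2 weeks, 2.15-fold at 4 weeks and 4.24-fold on regular diet, and was not called (limma adjusted p 0.14, 0.12 and 0.071). At 4 weeks Cd86 was called under 2 of 21 alternatives. These minimum folds hold for the scanner's processed signal only, since with normexp the log2 differences were -0.08, 0.01 and 0.11 (adjusted p 0.94, 0.99 and 0.84). The other probe was at least 1.53-fold, 2.36-fold and 4.27-fold higher, with limma adjusted p of 0.33, 0.12 and 0.047. It was measured on 2 of 3 arrays at 2 weeks, so its 2-week value is not a strict minimum. Without regular diet arrays 1 and 2 the probes were at least 2.49-fold and 2.43-fold higher, and both were called (adjusted p 0.039 and 0.041). These p-values use untreated signals that were not well above background.

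The named genes whose profile over the 16 arrays was most like the mean of Cd74, H2-Aa and H2-Ab1 were ranked by Pearson correlation among 13983 genes. In order they were Slamf8 (0.885), C4b (0.873), Gbp2 (0.871), Gfpt2 (0.870), S100a4 (0.863), Gfap (0.860), Ctsw (0.860), H2-Q4 (0.857), Cybb (0.853) and H2-D1 (0.847). Neighbours in this order lie close together and cannot be ranked firmly. The order also leans on the H2-Aa levels under background. With Cd74 and H2-Ab1 alone as the reference, a choice made after seeing the data, 5 of these genes stayed among the 10 most alike, Slamf8 (0.928), H2-Q4 (0.905), H2-D1 (0.895), Cybb (0.890) and Ctsw (0.889). Gfap encodes the intermediate filament of astrocytes, C4b a complement component, Cybb a subunit of the phagocyte oxidase, Gbp2 an interferon-induced GTPase, and H2-D1 and H2-Q4 class I heavy chains. Over the 10 untreated and CPZ arrays the same genes had correlations between 0.856 and 0.958 with the class II mean.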

How the data were processed

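The authors deposited Feature Extraction 11.0.1.1 files with the background-subtracted intensity of each spot, and a table of log2 values scaled to the 75th percentile and, as the values show, set to the median of the 3 controls. No gene name comes with either. Accessions of 27479 of 41174 probes (66.7%) matched a RefSeq table of assembly GRCm38.p6. The members and gene lists were chosen with earlier results of these data known.

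For 14 of 16 samples, the scanner file on record was not the array behind that sample's column of the log2 table. Scanner files were assigned through the columns, which each matched 1 file over 21968 probes (Pearson correlation 1.00, next best at most 0.89), a departure from the record.

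Control and outlier spots (48 to 126 an array) were left out, spots of a probe averaged, and the log2 75th percentile subtracted (percentile signal 159.2 to 357.5). Between 57.3 and 72.2% of probes were well above background, and the number of arrays limits the precision. limma 3.58.1 in R 4.3.3 was fitted to the 10 untreated and CPZ arrays (27505 probes) for CPZ comparisons and to all 16 arrays (27785 probes) for regular diet, with Benjamini-Hochberg adjustment over all probes tested. A call needed an adjusted p under 0.05 and a 2-fold difference. The methods name an analysis of variance with Tukey's test, which was run as an alternative. Of genes, the members were named in full, the pathway lists by counts with examples, and the 10 genes most like the mean of the chains and Cd74. The pathway examples were chosen after their values were seen. The fits were tested on simulated data. Alternatives were quantile, median and normexp (offset 50, on median signals) processing, other filters, probes and fits, the slide (statmod 1.5.0) or replicate number as a block, the log2 table, the recorded assignment, and each array left out.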

Additional observations from a re-analysis of the deposited data

How the results depend on the processing

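At 2 weeks of CPZ, between 4 and 2 weeks, and between regular diet and 4 weeks of CPZ, the number of members called was 0 under every alternative run. At 4 weeks it was 1 with the slide as a fixed or as a random block, and 0 otherwise. On regular diet against untreated it was 2, and it was 1 with quantile normalization, without the filter on dim probes, with only the 2 groups compared, and without the 2 regular diet arrays that stand apart. It was 0 with array median scaling, normexp, the replicate block, the recorded assignment of scanner files and the methods' test. It ranged from 0 to 2 with 1 array left out. There Cd74 had adjusted p of 0.053 (median scaling), 0.10 (normexp), 0.11 (replicate block) and 0.097 (methods' test), with differences of 1.36 to 2.57. Under the recorded assignment its difference was 0.16 (adjusted p 0.96) and that of H2-Ab1 0.04 (adjusted p 0.99). Replicate numbers did not pair the arrays (correlations of same-numbered arrays -0.81 to 0.34 over all 4 groups, -0.14 to 0.34 between untreated and regular diet), and with the replicate block no member was called in any comparison, with 19 of all genes called on regular diet.

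Over 1030 recomputed values of single genes, 18 changed sign, 10 of them under the recorded assignment. Those were H2-DMa at 2 weeks (0.42); Cd74 (-0.38), H2-Ab1 (-0.11), H2-Oa (-0.08) and Cd274 (-0.30) at 4 weeks; Cd74 (-1.92), H2-Ab1 (-1.51) and H2-DMb1 (-0.48) between 4 and 2 weeks; and Cd274 against untreated (-0.24) and H2-DMa against 4 weeks (-0.36) on regular diet. Between 4 and 2 weeks Cd74 also changed sign with normexp (-0.02), without array 2 (-0.09) or 3 (-0.15) of the 2-week group and without array 3 of the 4-week group (-0.32), and H2-Ab1 without array 2 of the 2-week group (-0.06). With single arrays left out that comparison ranged from -0.32 to 0.30 for Cd74 and from -0.06 to 0.84 for H2-Ab1. Cd86 at 2 weeks was -0.08 with normexp. Without the 2 arrays that stand apart, H2-DMa and H2-DMb1 on regular diet against 4 weeks were -0.11 and -0.09. The cause was not tested.

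The number of all genes called moved more. It was 43 at 2 weeks (0 to 254 over the alternatives), 34 at 4 weeks (0 to 393), 3 between 4 and 2 weeks (0 to 55), 176 on regular diet against untreated (0 to 263) and 1 on regular diet against 4 weeks (0 to 1435). Array median scaling moved the median of all genes by -0.30 on regular diet against 4 weeks, where it called 611 genes higher and 434 lower, by 0.28 between 4 and 2 weeks, and by -0.16 to 0.12 in the CPZ comparisons with untreated and -0.18 on regular diet. Normexp moved it by -0.15 to 0.04.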
